A study of Mus musculus with 12 samples.

Results

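The neuronal pentraxins Nptx1, Nptx2 and Nptxr were followed in mouse hippocampal slices after chemical long-term potentiation (LTP). They were chosen by name, and all 3 were found among the 41091 gene identifiers of the count tables, each under 1 identifier. Neuronal pentraxins are secreted or membrane-anchored proteins that assemble with each other at excitatory synapses and gather AMPA receptors, the glutamate receptors that carry fast excitatory transmission. Nptx1 and Nptx2 (also called Narp) are released, whereas Nptxr, the neuronal pentraxin receptor, is held in the membrane and can be cut free by a metalloprotease. Nptx2 is known as an immediate early gene of neuronal activity, and it is also found at excitatory synapses on parvalbumin interneurons.

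Total RNA was sequenced from 12 libraries in 4 groups of 3. All slices came from wild-type C57BL/6 mice aged 2 to 3 months, had the dentate gyrus trimmed away, and rested for 2 hr in interface chambers before treatment. The 1 hr LTP and 3 hr LTP slices were bathed for 5 min in 50 uM forskolin, which activates adenylyl cyclase, and then in forskolin plus 30 mM KCl and 10 mM calcium to complete 10 min, and were frozen 1 hr or 3 hr later. The 1 hr control and 3 hr control slices received 0.2% DMSO for 10 min and were frozen at the same times. Slices of each animal were divided between LTP and control treatment, and the labels do not say whether the 2 time points share animals, so time and animal cannot be told apart. Induction was chemical and applied to the slice as a whole, and RNA came from whole slices, so fewer cells of a type and less RNA per cell cannot be told apart.

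Libraries held 37118382 to 50815001 counts in genes. Replicate 2 of the 1 hr control group stood apart in the clustering done by the study and was kept out of the tests here as it was there. Its values are given beside the others, and tests with it are among the alternatives of the closing section. Of 38 markers of 9 cell types, each was detected, and 0 differed between LTP and control slices at either time by edgeR's quasi-likelihood test. At an unadjusted p under 0.05 there were 8 at 1 hr and 6 at 3 hr, beside 6.71% and 20.2% of all genes tested, DESeq2 called 0 and 1, and limma-voom called 0 at both times. Of the 8 at 1 hr, 3 were of the 4 oligodendrocyte markers, all 4 of them higher in LTP slices (median log2 fold change 0.22, sums of 4226 to 5148 CPM in tested control and 4985 to 6015 CPM in LTP libraries), and 3 were of the 4 endothelial markers, all 4 lower (median -0.22, sums of 83.0 to 91.9 and 72.2 to 74.7 CPM without overlap). The other 2 were of the 5 interneuron markers, with values on both sides of 0 (log2 fold changes of -0.19 for Sst to 0.20 for Gad2 and Slc32a1, median 0.11, sums of 435.9 to 502.2 CPM in tested control and 479.3 to 498 CPM in LTP libraries). Pvalb, which marks the parvalbumin interneurons that Nptx2 acts on, had -0.09 at 1 hr and -0.30 at 3 hr (edgeR adjusted p of 0.957 and 0.199). Their part in the 1 hr results was not tested. In these trimmed slices the summed level of 5 dentate granule cell markers was 162 to 293 CPM (counts of a gene relative to the scaled total of its library), and that of 4 CA1 markers was 347 to 527 CPM. The sums hold different genes and no untrimmed slices were sequenced, so they do not measure how much dentate tissue was left.

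The 3 genes lie on different chromosomes and are alike in coding sequence but distinct enough to be counted apart. In GRCm38, Nptx1 (ENSMUSG00000025582.4) is at chr11:119538719-119547753 on the minus strand with 5 exons, Nptx2 (ENSMUSG00000059991.6) is at chr5:144545902-144557478 on the plus strand with 5 exons, and Nptxr (ENSMUSG00000022421.13) is at chr15:79786351-79804766 on the minus strand with 3 annotated transcripts. Their coding sequences hold 432, 429 and 493 codons before the stop. That of Nptxr is annotated to begin at a CTG codon, those of the others at ATG. Encoded residues were 59.2% identical between Nptx1 and Nptx2, 54.8% between Nptx2 and Nptxr, and 51.6% between Nptx1 and Nptxr. Over the last 200 residues, which hold the pentraxin domain, these shares were 69.0%, 63.8% and 64.0%, and over the rest 50.0%, 46.6% and 40.5%. No stretch of 25 bases was shared between transcripts of any pair.

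The pentraxin signature is an 8-residue pattern that marks the domain (histidine, any, cysteine, any, serine or threonine, tryptophan, any, serine or threonine). Each coding sequence matched it once, in exon 4 of 5. The 24 bases of these 8 codons are shown in capitals with 3 bases on each side, from the GENCODE M21 transcripts, since they show how the 3 genes spell the same stretch of the domain with different bases.
Nptx1, codons 314 to 321, chr11:119543293-119543322, minus strand: catCACATCTGTGTCACCTGGACCACCcgg
Nptx2, codons 309 to 316, chr5:144555336-144555365, plus strand: cacCACATCTGCATCACCTGGACCACTcga
Nptxr, codons 374 to 381, chr15:79790377-79790406, minus strand: cacCATATCTGCATCTCCTGGACTACAagg
Within these 30 bases, Nptx1 and Nptx2 had the same base at 25 positions, Nptx2 and Nptxr at 24, and Nptx1 and Nptxr at 22.

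Exons of Nptx1 and Nptx2 overlap no other gene. Of the exonic bases of Nptxr, 17.21% are shared on the same strand with Npcd, a gene model that joins Nptxr to its neighbour Cbx6. Npcd was listed at 0 counts in all 12 libraries, and how reads in the shared bases were assigned is not given in the sources used here.

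Nptx2 was the member that rose after LTP. In the 1 hr control slices its level was 50.4, 55.1 and 51.3 CPM in replicates 1 to 3 (the second of these outside the test), and in the 1 hr LTP slices it was 93.5, 77.04 and 83.6 CPM. Every LTP library lay above every control library, the untested one included. The means were 50.9 ± 0.648 CPM (SD, n = 2) and 84.7 ± 8.31 CPM (SD, n = 3), and Nptx2 rose 1.68-fold (log2 fold change 0.75, SE 0.09, 95% interval 0.56 to 0.93, quasi-likelihood test of edgeR, adjusted p = 0.000245 by Benjamini-Hochberg). Calls required more than 1.2-fold change together with an adjusted p below 0.1. At 1 hr, 140 of 17736 genes tested were called, or 0.789%, while 22.6% of genes had groups that did not overlap, so the lack of overlap alone is common here. Nptx2 ranked 67th by fold change among the 138 genes called higher and 31st of all genes by p.

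At 3 hr the level of Nptx2 was 88.9, 95.7 and 95.6 CPM in control slices and 116, 136 and 122 CPM in LTP slices. The groups again did not overlap, as for 27% of the 17508 genes tested. Means of 93.4 ± 3.9 CPM and 124.9 ± 10.3 CPM (SD, n = 3 each) gave a 1.35-fold rise (log2 fold change 0.43, SE 0.07, 95% interval 0.27 to 0.60, edgeR adjusted p = 0.018). At this time 1155 genes, or 6.6%, were called, and Nptx2 ranked 551st of 888 called higher. With 1 library left out in turn, Nptx2 remained called in each of 6 tests, with an adjusted p of up to 0.0969.

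**Figure D1:**
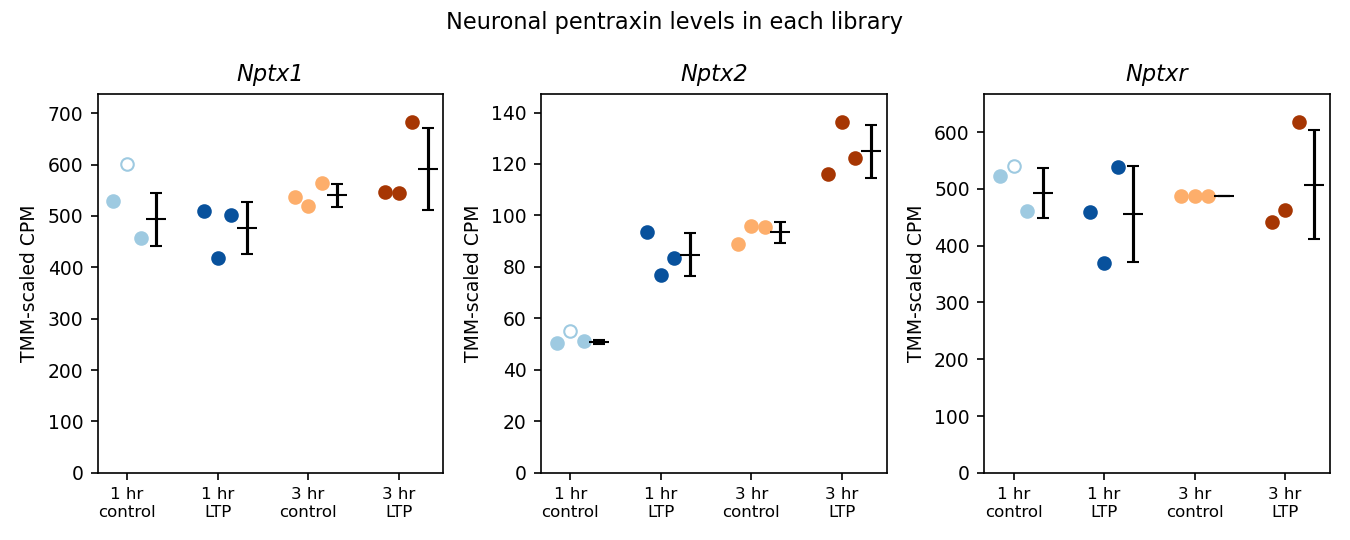
TMM-scaled CPM of Nptx1, Nptx2 and Nptxr (one panel each, linear axis from 0) in each library of the 4 groups, replicates 1 to 3 from left to right. The open point is 1 hr control replicate 2, which was not tested, and the black mark and bar are the mean and SD of the filled points. Nptx2 runs from about 50 CPM in 1 hr control slices to 116 to 136 CPM in 3 hr LTP slices, while the groups of Nptxr overlap throughout.

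Within animals the difference had the same sign each time. As log2 ratios of CPM plus 0.1, LTP over control from the same animal, Nptx2 gave 0.89, 0.48 and 0.70 at 1 hr for animals 1 to 3 (the second against the untested control) and 0.39, 0.51 and 0.36 at 3 hr. The Nptx2 counts behind these values were 1952 to 6201 per library.

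The rise was smaller at 3 hr than at 1 hr, but not to an extent that the test across genes called. In a model of all 4 groups the LTP effect on Nptx2 was lower at 3 hr by 0.31 on the log2 scale (a difference of -0.31, SE 0.12, 95% interval -0.55 to -0.06, unadjusted p = 0.0185, edgeR adjusted p = 0.638). This interaction was called for 11 of 18584 genes, or 0.0592%, at an adjusted p under 0.1 with no fold minimum, and 1225 genes had an unadjusted p under 0.05.

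Nptx1, the secreted partner of Nptx2, was not called between LTP and control slices at either time. At 1 hr its level was 529.8, 602 and 457 CPM in control slices, with the second untested, and 509, 419 and 501 CPM in LTP slices. These groups overlapped (means 493 ± 51.7, n = 2, and 477 ± 49.9 CPM, SD, n = 3), with a log2 fold change of -0.04 (95% interval -0.23 to 0.15, edgeR adjusted p = 0.98). At 3 hr the values were 537, 519 and 564 CPM in control slices and 547, 544 and 683 CPM in LTP slices. Replicate 3 of the LTP slices stood above the other 5 libraries, and the log2 fold change was 0.14 (95% interval -0.07 to 0.36, edgeR adjusted p = 0.427). With 1 library left out it ranged from 0.019 to 0.21, the lowest being without that library. The interaction for Nptx1 was 0.19 (95% interval -0.13 to 0.51, adjusted p = 0.913), and with 1 library left out it ranged from 0.049, without 1 hr control replicate 1, to 0.27. In the tests as reported, the upper ends of the intervals for LTP against control lay at a rise of 1.11-fold at 1 hr and 1.28-fold at 3 hr. The estimates moved when single libraries were left out, so these ends are no largest possible rise. Log2 ratios of Nptx1 within animals were -0.06, -0.52 and 0.13 at 1 hr, the second against the untested control, and 0.03, 0.07 and 0.28 at 3 hr.

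Nptxr, the membrane-anchored member, was likewise not called at either time. Its level at 1 hr was 524, 541 and 461 CPM in control slices, again with the second untested, and 459, 369.8 and 539 CPM in LTP slices. The LTP libraries spread around the controls, with a log2 fold change of -0.10 (95% interval -0.35 to 0.14, edgeR adjusted p = 0.949). At 3 hr the controls lay close together at 488, 487 and 488 CPM, and the LTP libraries were 441, 463 and 618 CPM, with 2 below and 1 above the controls. The log2 fold change there was 0.07 (95% interval -0.19 to 0.33, adjusted p = 0.779), and it turned to -0.10 without 3 hr LTP replicate 3. The interaction was 0.18 (95% interval -0.24 to 0.60, adjusted p = 0.949). Within animals the log2 ratios of Nptxr were -0.19, -0.55 and 0.22 at 1 hr and -0.15, -0.07 and 0.34 at 3 hr, so animals of the same group differed in sign.

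**Figure D2:**
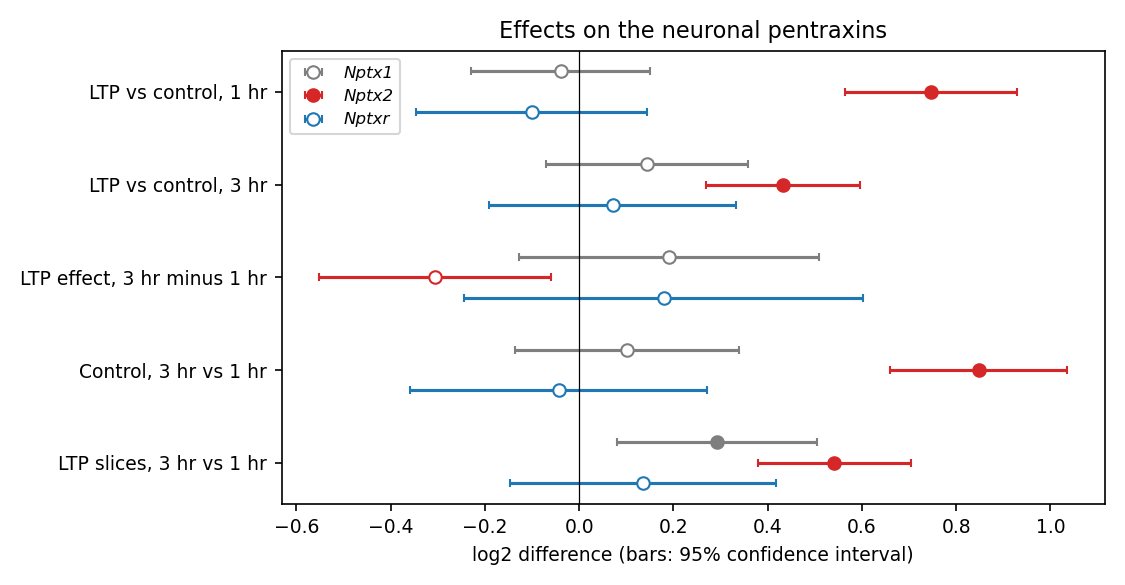
Log2 difference of each member with its 95% confidence interval in 5 comparisons, from edgeR: LTP over control at 1 hr and at 3 hr, the change of that effect from 1 hr to 3 hr, and 3 hr over 1 hr within control and within LTP slices. Filled points were called (adjusted p under 0.1 and, except for the change of effect, over 1.2-fold). Nptx2 is filled in all 4 comparisons of groups, Nptx1 only between LTP slices, and Nptxr in none.

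Nptx2 also differed between the time points, in control slices as well as in LTP slices. From 1 hr to 3 hr it was 1.80-fold higher in control slices (log2 difference 0.85, SE 0.09, 95% interval 0.66 to 1.04, edgeR adjusted p = 5.12e-05) and 1.46-fold higher in LTP slices (0.54, SE 0.08, 95% interval 0.38 to 0.70, adjusted p = 0.000189). Such differences were widespread, with 32.8% of 18584 genes called in controls and 35.9% in LTP slices, and with groups that did not overlap for 60.7% and 44.9% of genes. Nptx2 ranked 679th of the 2987 genes called higher in controls and 1590th of 3460 in LTP slices. These comparisons use the same libraries as those of LTP against control.

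In the order of its levels, 1 hr control slices were lowest, 1 hr LTP and 3 hr control slices came next, and 3 hr LTP slices were highest. The middle groups overlapped (77.04 to 93.5 CPM and 88.9 to 95.7 CPM), and they differ in both treatment and time, so no test was made between them. Each other pair of neighbours in this order was separated without overlap.

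Nptx1 was called between the time points only in LTP slices, where it was 1.23-fold higher at 3 hr (log2 difference 0.29, SE 0.10, 95% interval 0.08 to 0.51, edgeR adjusted p = 0.0328). All 3 hr LTP libraries (544 to 683 CPM) lay above all 1 hr LTP libraries (419 to 509 CPM). That comparison called 35.9% of all genes, and 44.9% had groups that did not overlap. The call depended on single libraries. Without 1 hr LTP replicate 2 the log2 difference was 0.24 (adjusted p = 0.0972), under the fold minimum, and without 3 hr LTP replicate 3 it was 0.18 (adjusted p = 0.127). The interaction of Nptx1, which is the difference between the time effects in LTP and control slices, was 0.19 and not called (edgeR adjusted p = 0.913). In control slices the log2 difference of Nptx1 was 0.10 (95% interval -0.14 to 0.34, edgeR adjusted p = 0.524). Leaving out 1 library gave 0.036 to 0.25, the highest being without 1 hr control replicate 1, and none of these was called. Nptxr gave -0.04 in control slices (95% interval -0.36 to 0.27, adjusted p = 0.852) and 0.14 in LTP slices (-0.15 to 0.42, adjusted p = 0.447), and only without 1 hr LTP replicate 3 was it called in LTP slices (0.30, adjusted p = 0.0968).

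Cell type markers differed between the time points too. The summed level of 4 neuron markers was 4217 to 4876 CPM in the tested 1 hr libraries and 3365 to 3918 CPM at 3 hr, that of 4 microglia markers 134.8 to 152.4 CPM and 95.4 to 109 CPM, and that of 4 oligodendrocyte markers 4226 to 6015 CPM and 5752 to 7115 CPM. The sum of 4 CA1 markers had means of 388 ± 38.2 and 484 ± 42.5 CPM in 1 hr and 3 hr control slices (SD, n = 2 and 3) and of 396 ± 57 and 499 ± 47.5 CPM in 1 hr and 3 hr LTP slices (SD, n = 3 each), and 2 of the 4 were called higher in each kind of slice. Nptx2 thus was higher where the general neuron and microglia sums were lower and where the CA1 and oligodendrocyte sums were higher. Of the 4 neuron markers, 2 were called lower and 1 was above 0 in each kind of slice. Other lists were mixed. Of 4 endothelial markers, 2 were called lower in control slices and 2 higher in LTP slices. Of 4 CA3 markers, 1 was called higher and 2 lower in control slices, and 1 higher and 1 lower in LTP slices. Of the 38 markers, 6 were called higher and 12 lower at 3 hr in control slices, and 7 higher and 9 lower in LTP slices, beside 32.8% and 35.9% of all genes called in either direction. Their part in the results between time points was not tested. Within groups, the tested library highest in Nptxr also had the highest neuron sum in each of the 4 groups. These were replicate 1 in 1 hr control slices (4876 CPM), replicate 3 in 1 hr LTP slices (4781 CPM), replicate 1 in 3 hr control slices (3766 CPM), where the 3 levels of Nptxr lay within 487 to 488 CPM, and replicate 3 in 3 hr LTP slices (3918 CPM against 3365 and 3500 CPM). The untested 1 hr control replicate 2 had the highest Nptxr and the lowest sum of its group (4263 CPM). For Nptx1 the highest tested library had the highest sum in 1 hr control and 3 hr LTP slices, whereas the highest in 1 hr LTP slices, replicate 1, and in 3 hr control slices, replicate 3, had the lowest sums of their groups (4217 and 3581 CPM). The part of neuron content in the levels of either gene was not tested. Dentate granule sums did not follow Nptx2 in the same way at both times. In the 1 hr LTP group the library highest in Nptx2, replicate 1, was the highest in dentate markers (258 CPM), whereas in the 3 hr LTP group the library highest in dentate markers, replicate 1 with 293 CPM, was the lowest in Nptx2.

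Levels can be set against each other only per length, and were given as CPM per kb of merged exonic sequence (5217 bases for Nptx1, 2536 for Nptx2 and 5170 for Nptxr). The study describes its expression analysis as limited to reads in coding regions. The deposited tables also count genes without one (1492 of 2521 lincRNA identifiers held counts), and whether the counts of coding genes leave out their untranslated parts is not given in the sources used here. Values per kb of coding sequence (1299, 1290 and 1482 bases), chosen after seeing the data, therefore follow those per kb of exons. On the exonic scale Nptx1 and Nptxr were close, and Nptx2 was the least abundant member in every group. In 1 hr control slices the levels were 94.5 ± 9.9 for Nptx1, 95.3 ± 8.5 for Nptxr and 20.1 ± 0.256 CPM per kb for Nptx2 (SD, n = 2), and in 3 hr LTP slices they were 113 ± 15.2, 98.2 ± 18.6 and 49.3 ± 4.06 CPM per kb (SD, n = 3). The ratio of Nptx1 to Nptx2 was 4.72 ± 0.554 in 1 hr control, 2.74 ± 0.156 in 1 hr LTP, 2.81 ± 0.157 in 3 hr control and 2.31 ± 0.386 in 3 hr LTP slices. Per kb of coding sequence the same ratio was 9.64 ± 1.13, 5.59 ± 0.32, 5.75 ± 0.322 and 4.73 ± 0.788. The size of the gap between Nptx1 and Nptx2 thus depended on the length used by about as much as it differed between 1 hr control and 3 hr LTP slices. The ratio of Nptx1 to Nptxr ran from 0.992 ± 0.0155 in 1 hr control to 1.16 ± 0.0669 in 3 hr LTP slices, or from 1.14 ± 0.0178 to 1.34 ± 0.077 per kb of coding sequence.

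The make-up of pentraxin transcripts therefore shifted with Nptx2. Of the summed level per kb of the 3 genes, Nptx2 held 8.93%, 8.98% and 10.3% in 1 hr control replicates 1 to 3, and 16.5%, 16.7% and 14.1% in 1 hr LTP replicates. Each LTP library exceeded each control library in this share. At 3 hr the shares were 15.1%, 16.3% and 15.7% in control slices and 19.4%, 21.7% and 16.2% in LTP slices. Here LTP replicate 3, the library with the high Nptx1 and Nptxr levels, fell within the controls. Per kb of coding sequence the shares of Nptx2 were lower, with group means of 5.27% in 1 hr control, 8.92% in 1 hr LTP, 8.86% in 3 hr control and 10.96% in 3 hr LTP slices. Shares are fixed by the levels already tested and were given no test of their own.

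**Figure D3:**
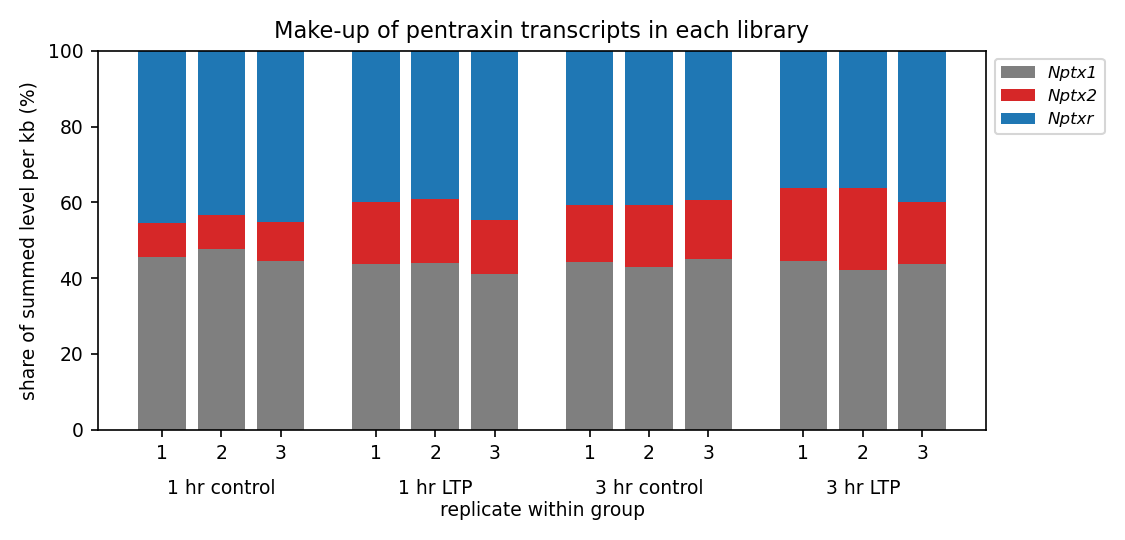
Share of each member in the summed CPM per kb of merged exons of the 3 neuronal pentraxins, in percent, for replicates 1 to 3 of each group. The band of Nptx2 is 8.93% to 10.3% of the bar in 1 hr control slices and 16.2% to 21.7% in 3 hr LTP slices, while Nptx1 holds 41.2% to 45.6% in the tested libraries.

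Across the 12 libraries Nptx1 and Nptxr varied together (Pearson r = 0.802 of log2 CPM plus 0.1), while Nptx2 followed neither (r = 0.354 with Nptx1 and r = -0.00706 with Nptxr). These values mix LTP, time and library and share the scaling of each library. Among the 11373 other genes that averaged 5 CPM or more, those most like Nptx2 were Adamts1, a secreted metalloprotease (r = 0.968), Spry2, an inhibitor of receptor tyrosine kinase signalling (r = 0.965), and Rassf1, a Ras-association scaffold (r = 0.964). Their log2 fold changes in LTP slices were 0.48, 0.47 and 0.48 at 1 hr and 0.37, 0.40 and 0.35 at 3 hr, with edgeR adjusted p of 0.00168 to 0.0326. These genes were picked for following Nptx2 over the same libraries, so values that resemble it are part of the choice and no further evidence. Most like Nptx1 were Kndc1, a guanine nucleotide exchange factor of dendrites (r = 0.964), Extl1, an exostosin-like glycosyltransferase (r = 0.955), and Madd, an exchange factor for Rab3 (r = 0.949). Most like Nptxr were Cadm3, a synaptic adhesion molecule (r = 0.963), Hapln4, which links hyaluronan to proteoglycans (r = 0.936), and Snap91, a clathrin assembly protein (r = 0.922). The adjusted p of these 6 in LTP slices against controls was at least 0.35, which is likewise tied to how they were picked.

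The AMPA receptor subunits, which pentraxins gather at the synapse, were not called with Nptx2. Of 4 subunits, 0 were called at 1 hr and 0 at 3 hr by edgeR, DESeq2 or limma-voom, and 0 and 1 had an unadjusted p under 0.05. Over all genes tested, edgeR called 0.789% and 6.6%, and 6.71% and 20.2% had an unadjusted p under 0.05. With 4 genes, 0 calls are therefore little result. The medians of the log2 fold changes of the subunits were -0.01 at 1 hr and 0.07 at 3 hr, beside medians of about 0 over all genes tested (-0.0010 and -0.0025). Gria1, Gria2, Gria3 and Gria4 had log2 fold changes of -0.02, -0.01, 0.01 and -0.04 at 1 hr, and 0.12, 0.02, 0.22 and -0.0048 at 3 hr. Gria3 at 3 hr had an adjusted p of 0.0574 but stayed under the fold minimum. From 1 hr to 3 hr in control slices, where Nptx2 was higher, Gria1, Gria2 and Gria4 were called lower (log2 differences of -0.30, -0.33 and -0.33, edgeR adjusted p of 0.0122 to 0.0149), or 3 of 4 in a comparison that called 32.8% of all genes. Gria3 was at -0.22 there (edgeR adjusted p = 0.0131), under the fold minimum. The sum of 4 neuron markers was also lower at 3 hr in control slices (means of 4757 and 3687 CPM at 1 hr and 3 hr), and its part was not tested. In LTP slices, where Nptx2 was also higher at 3 hr and 35.9% of all genes were called, Gria2 and Gria4 were called lower (-0.30 and -0.29), whereas Gria1 was at -0.15 (adjusted p = 0.114) and Gria3 at -0.01 (adjusted p = 0.935).

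Among 16 auxiliary subunits, which set AMPA receptor trafficking and gating, 0 were called at 1 hr by edgeR and by limma-voom, 1 by DESeq2, and 3 had an unadjusted p under 0.05. Of all genes at 1 hr, edgeR called 0.789%, and 6.71% had an unadjusted p under 0.05. At 3 hr, 2 of the 16 rose, beside 6.6% of all genes called, namely Shisa6 (log2 fold change 0.73, SE 0.12, edgeR adjusted p = 0.0158) and Shisa7 (0.54, SE 0.12, adjusted p = 0.0494), both transmembrane partners of the receptor. Shisa6 had values of 0.08 and Shisa7 of 0.19 at 1 hr, and the interactions were not called (adjusted p of 0.315 and 0.737). At 1 hr the gene farthest from 0 was Cacng5, a transmembrane AMPA receptor regulatory protein, at 0.67 (adjusted p = 0.128). The medians of the list were 0.01 and 0.05.

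Other genes with a pentraxin domain were mostly low in these slices, Ptx3 being the exception. Of 6, 4 passed the filter on low counts. Apcs was listed at 0 in all group means and Crp at 0 in all but the 1 hr LTP slices (0.0162 CPM), 2 genes known as plasma pentraxins of the liver. None of the 4 was called at either time by edgeR, DESeq2 or limma-voom, and 0 at 1 hr and 1 at 3 hr had an unadjusted p under 0.05, with medians of -0.06 and -0.08. At these times edgeR called 0.789% and 6.6% of all genes, and 6.71% and 20.2% had an unadjusted p under 0.05. The members farthest from 0 were Ptx4 at 1 hr (-0.82, adjusted p = 0.878, under 1 CPM) and Svep1 at 3 hr (0.67, adjusted p = 0.12). Ptx3, the long pentraxin of inflammation, was at 6.93 and 8.54 CPM in 1 hr control and LTP slices and at 27.2 and 24.1 CPM at 3 hr, so that it was called higher with time in both kinds of slice (log2 differences 1.94 and 1.48, edgeR adjusted p = 7.06e-05 and 8.36e-05), in comparisons that called 32.8% and 35.9% of all genes. In LTP slices Svep1 was also called higher at 3 hr (0.76, adjusted p = 0.0661) and Adgrg6 lower (-0.42, adjusted p = 0.0642). Ptx3 was singled out after its values were seen.

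**Figure D4:**
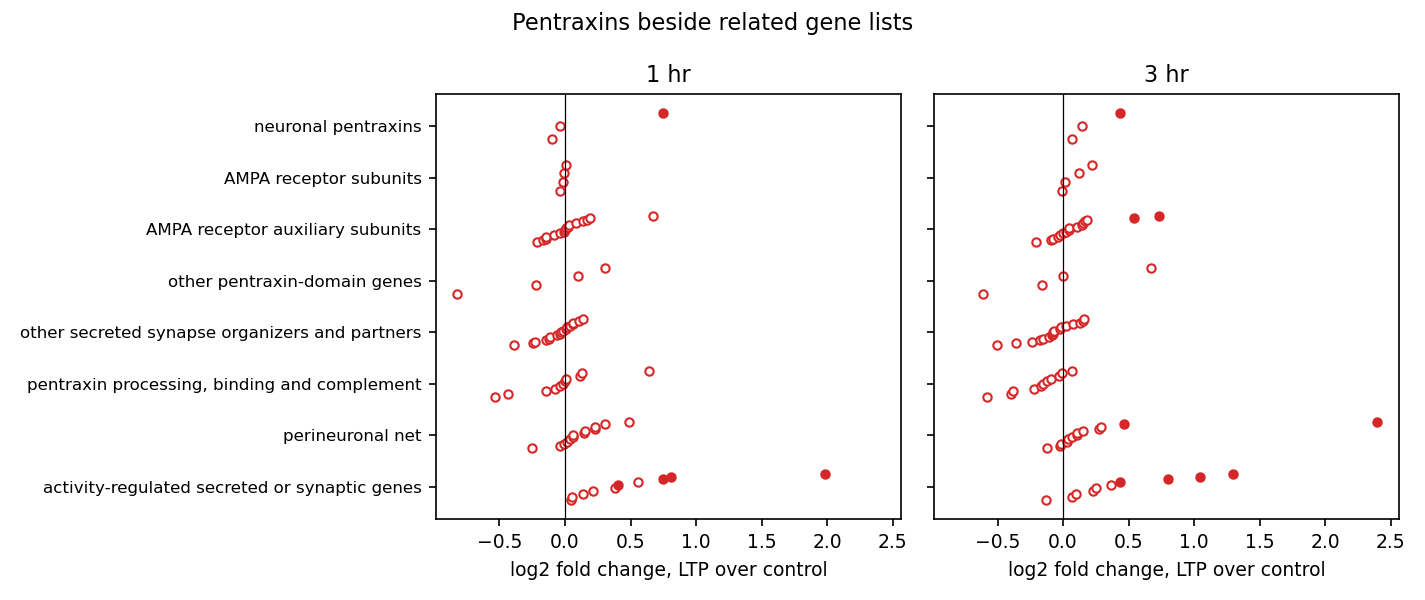
Log2 fold change of LTP over control slices at 1 hr (left) and 3 hr (right) for the neuronal pentraxins and 7 related gene lists, one point per tested gene, spread vertically for legibility. Filled points were called. Nptx2 is the filled point of the top row, at 0.75 and 0.43, and is also a member of the bottom list.

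Genes that process or bind pentraxins were likewise not called. The list holds Adam17 and Adam10, metalloproteases of the cell surface, complement genes, since pentraxins bind complement C1q, and the reticulocalbins Rcn1 and Rcn2. Of these 11 genes, 0 were called at 1 hr and 0 at 3 hr by edgeR, DESeq2 or limma-voom, and 0 and 1 had an unadjusted p under 0.05. Among all genes, edgeR called 0.789% and 6.6%, and 6.71% and 20.2% had an unadjusted p under 0.05. Log2 fold changes were above 0 for 4 of the 11 at 1 hr and 1 at 3 hr, beside 49.7% and 49.5% of all genes. The medians of the list were -0.02 and -0.15. C3, the central complement component, was farthest from 0 at both times, with 0.64 and -0.58 at about 1 CPM (adjusted p = 0.872 and 0.495).

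Of 17 other secreted synapse organizers and their partners, such as cerebellins and LGI proteins, 0 were called at either time by the same 3 tools, and 1 at 1 hr and 2 at 3 hr had an unadjusted p under 0.05. The shares of all genes were 0.789% and 6.6% called by edgeR, and 6.71% and 20.2% at an unadjusted p under 0.05. Medians of the 17 were -0.03 and -0.07, and Cbln1, cerebellin 1, was farthest from 0 with -0.39 and -0.50 (edgeR adjusted p = 0.808 and 0.156). Of 13 genes of the perineuronal net, the matrix around parvalbumin interneurons where Nptx2 is known to accumulate, 0 were called at 1 hr by the 3 tools (1 at an unadjusted p under 0.05), with Has2, a hyaluronan synthase, farthest from 0 at 0.49. At 3 hr Has1, another hyaluronan synthase (log2 fold change 2.4, from 0.441 to 2.31 CPM, edgeR adjusted p = 0.00278), and Tnr, the net's tenascin-R (0.46, adjusted p = 0.00974), rose, that is 2 of 13 beside 6.6% of all genes called. DESeq2 called 3 and limma-voom 2, and 3 had an unadjusted p under 0.05. The medians of that list were 0.06 and 0.11. From 1 hr to 3 hr, 5 of its 13 genes were called higher and 1 lower in control slices. In LTP slices 8 were called higher and 2 lower. These comparisons called 32.8% and 35.9% of all genes.

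Per the methods of the study, libraries were made only from slice samples in which qPCR had shown a rise of Arc and of the short form of Homer1. The rises of these genes in LTP slices were therefore in part fixed by the choice of samples and are no independent evidence. Nptx2 was not used in that choice, but its values come from slices chosen for this response. Nptx2 belongs to a group of 10 activity-regulated secreted or synaptic genes, of which edgeR called 4 higher at 1 hr, where it called 0.789% of all genes, and 4 higher at 3 hr, where it called 6.6%. DESeq2 called 5 at each time and limma-voom 4. Arc and Homer1 are among the 4 at each time, so both counts hold 2 genes that the choice of samples used. Both counts also hold Nptx2 itself, which leaves only Rgs4 at 1 hr and Inhba at 3 hr. At 1 hr the 4 were Arc, a regulator of AMPA receptor endocytosis (log2 fold change 1.99), Rgs4, a brake on G protein signalling (0.81), Nptx2 (0.75) and Homer1, a postsynaptic scaffold (0.41), with edgeR adjusted p of up to 0.0155. At 3 hr they were Arc (1.30), Inhba, an activin subunit (1.04), Homer1 (0.80) and Nptx2 (0.43), with adjusted p of up to 0.0212. The medians of the list, Nptx2 included, were 0.39 and 0.31. Only Arc was called for the interaction, at -0.68 (adjusted p = 0.031). From 1 hr to 3 hr in control slices, Nptx2 (0.85), Inhba (1.38), Vgf (0.78) and Arc (0.56) were called higher and Scg2 lower (-0.28), that is 5 of 10 where 32.8% of all genes were called, so Nptx2 was not alone in this list in its level in 3 hr control slices. Vgf and Scg2 were named for these calls between time points. In LTP slices 5 of the 10 were called higher at 3 hr and 3 lower, where 35.9% of all genes were called.

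**Figure D5:**
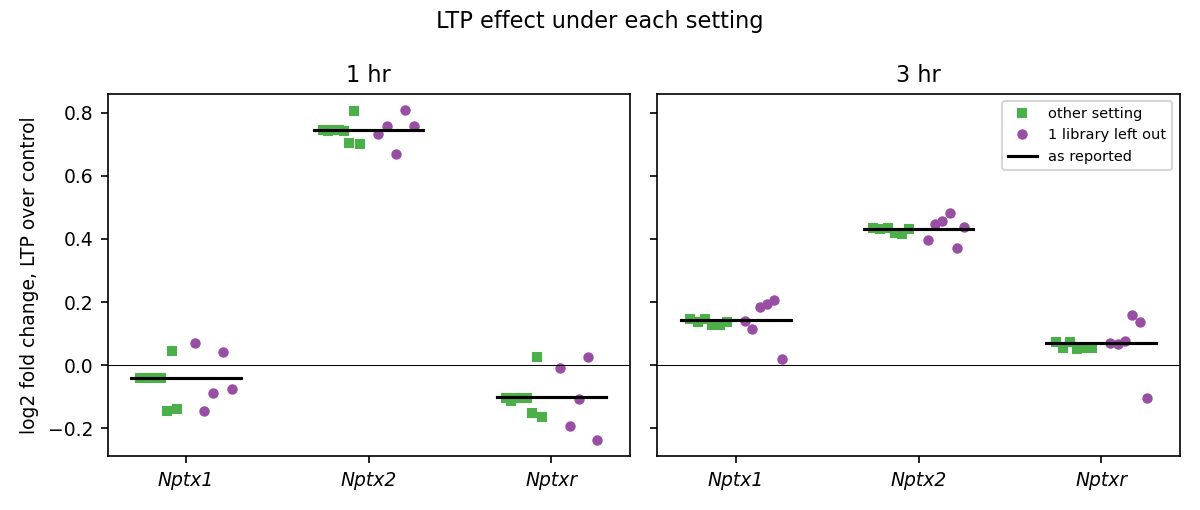
Log2 fold change of LTP over control slices for each member at 1 hr and 3 hr as reported (black line), under other tools, scalings, filters or blocks (green squares), and with 1 library left out (purple circles). All points of Nptx2 lie between 0.67 and 0.81 at 1 hr and between 0.37 and 0.48 at 3 hr, while points of Nptxr lie on both sides of 0 at both times, as do those of Nptx1 at 1 hr.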

How the data were processed

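RNA was measured in 12 libraries of mouse hippocampal slices. The deposited values are raw counts per gene in a table per time point. The authors prepared stranded, ribosome-depleted libraries of total RNA, aligned reads to mm10 with STAR and counted them per gene in R (the annotation release, the use of strand and any limit to coding bases in these tables are not given in the sources used here); the submitters' processing notes name DESeq2. Identifiers were matched without version to GENCODE M21 (40217 of 41091 matched, 874 did not). Members and lists were chosen with earlier results of these data known.

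After filterByExpr and TMM scaling, edgeR 4.0.16 in R 4.3.3 tested each time point on its own with glmQLFit and glmQLFTest, as the study's design does, without 1 hr control replicate 2 (5 libraries at 1 hr, 6 at 3 hr). A model of 4 groups (11 libraries) gave the interaction and the comparisons of time. Benjamini-Hochberg adjustment ran over all genes tested. Levels are CPM scaled by TMM over 12 libraries. Named genes were the members, the 3 genes most like each, and, from each list, genes called between LTP and control slices, the largest such change at each time, and the AMPA subunits. Genes named for a call between time points were chosen after their values were seen. Coding sequences were aligned with Biopython 1.88. The code was tested on simulated data.

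Replicate numbers pair LTP and control slices of 1 animal, per the labels. Deviations from group means correlated at -0.0149, -0.156 and 0.075 for the pairs at 1 hr and 0.0385, -0.0275 and 0.218 at 3 hr. Replicates differed by more than sampling noise (chi-square per degree of freedom 9.49 to 85.6). With 2 or 3 libraries a group, the spread between animals is poorly known for a single gene. The p-values of edgeR rest on that spread as estimated partly from all genes tested. Alternatives were DESeq2 1.42.0, limma-voom (limma 3.58.1), other scalings, no filter, the pseudocount, a replicate block, the left-out library leaving out each library and, added later, coding length.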

Additional observations from a re-analysis of the deposited data

How the results depend on the processing

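Nptx2 kept its direction and its call in all 13 alternatives at 1 hr (log2 fold change 0.67 to 0.81), all 12 at 3 hr (0.37 to 0.48), all 11 between control slices (0.84 to 0.90) and all 12 between LTP slices (0.48 to 0.64). Its interaction was called in 0 of 19 (-0.39 to -0.22, adjusted p 0.19 to 0.999). With the replicate block the LTP effect on Nptx2 was 0.80 at 1 hr and 0.43 at 3 hr. At 1 hr the block turned Nptx1 to 0.046 and Nptxr to 0.025, neither of them called, and it changed no call of a member. In that fit 1 hr LTP replicate 2 had no control of its animal. Once 1 hr control replicate 2 was included with the block, Nptx1 was at -0.14 and Nptxr at -0.16, below 0 as in the main test. With the block and 1 hr control replicate 2 included, 7 genes were called for the interaction, against 11. For that count DESeq2 gave 80 and no filter 102. No filter gave 347 calls at 1 hr, against 140. No paired analysis was possible between time points because the labels do not tie their animals.

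Leaving out 1 library gave 69 to 344 calls at 1 hr, 228 to 2170 at 3 hr and 1 to 67 for the interaction. Both highest counts of the last 2 came without 3 hr LTP replicate 2. At 1 hr Nptx1 ranged from -0.14 to 0.070, above 0 without 1 hr control replicate 1 (0.070) or 1 hr LTP replicate 2 (0.04), and Nptxr from -0.24 to 0.026, above 0 without 1 hr LTP replicate 2. At 3 hr Nptx1 ranged from 0.019 to 0.21 and Nptxr from -0.10 to 0.16. The interaction of Nptxr ranged from -0.0037 to 0.32 and that of Nptx1 from 0.049 to 0.27. Without 3 hr LTP replicate 3 both values of Nptxr were below 0. Between control slices Nptxr ranged from -0.095 to 0.091, above 0 without 1 hr control replicate 1, and Nptx1 from 0.036 to 0.25. Between LTP slices Nptxr ranged from -0.024 to 0.30 and Nptx1 from 0.18 to 0.37, with the call of Nptx1 lost as stated. The causes were not tested. Scaling by total counts moved Nptxr in 3 hr control slices from 94.3 to 94.5 CPM per kb. Coding in place of exonic length, added after seeing the data, moved all 12 ratios and shares of the members. With 2 or 3 libraries a group, small effects on Nptx1 and Nptxr lie inside the intervals given.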
